A study of Mus musculus with 14 samples.

Results

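The genes described here encode proteins that neutrophils and other myeloid cells store or carry in bulk. They are the S100 proteins of mature neutrophils (S100a8 and S100a9), 3 proteins of the specific granules (Ltf, Camp and Ngp), 4 proteins of the azurophil granules (Mpo, Elane, Prtn3 and Ctsg) and lysozyme (Lyz2). Every probe was taken whose gene symbol, current or older, is 1 of these 10 names. This gave 9 probes of the 19621 on the array, 1 for each gene except S100a9, which no probe named by symbol, synonym, gene ID or accession. Of all probes, 15353 name 1 gene, which makes 13923 distinct genes. RNA of right lung tissue from 14 adult mice on the C57/BL6 background, matched for age and sex, was measured on single-colour CodeLink arrays, 1 array per mouse. There were 4 ventilated jnk1-/- mice, 3 jnk1-/- controls, 4 ventilated wild-type mice and 3 wild-type controls. The jnk1-/- mice lack the gene for the kinase JNK1 in all cells of the body. Ventilation was at a tidal volume of 10 ml/kg with a positive end-expiratory pressure of 2 cmH2O for 8 hours, and controls were not ventilated. The ventilated mice also spent these hours under anesthesia and a muscle relaxant, so the effect of ventilation and that of the drugs cannot be told apart. In lung tissue, more cells of a type and more RNA per cell cannot be told apart either.

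Neutrophils make their granule proteins in sequence as they mature in the bone marrow. Azurophil proteins, among them myeloperoxidase and the serine proteases elastase, proteinase 3 and cathepsin G, are made first, in promyelocytes. Specific granule proteins such as lactoferrin and cathelicidin follow in myelocytes and metamyelocytes, and these genes are then largely shut off. S100a8 and S100a9 encode the chains of calprotectin, a zinc- and manganese-binding protein that fills the cytosol of mature neutrophils and is a ligand of TLR4 and RAGE. Lung injury by ventilation draws neutrophils into the lung, and the study asked whether mice without JNK1 respond to it differently.

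The promoters of the 3 genes with a difference past the threshold are shown, and that of Elane stands for the early azurophil genes. Each run is the 250 bases before the first base of the transcript, 5′ to 3′ on the gene's strand, from RefSeq on GRCm38.p6, where all 10 genes had an entry. Capitals mark the letters TTGCNNAA (a core that C/EBP factors bind, drivers of granulocyte genes) and GAGGAA (a core that PU.1 binds, a myeloid factor), on either strand. None of the marked stretches overlap.
S100a8: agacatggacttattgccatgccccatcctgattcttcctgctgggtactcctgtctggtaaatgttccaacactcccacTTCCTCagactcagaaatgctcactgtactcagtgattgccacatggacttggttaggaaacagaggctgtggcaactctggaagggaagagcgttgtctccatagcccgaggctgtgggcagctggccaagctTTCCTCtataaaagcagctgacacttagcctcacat
Ngp: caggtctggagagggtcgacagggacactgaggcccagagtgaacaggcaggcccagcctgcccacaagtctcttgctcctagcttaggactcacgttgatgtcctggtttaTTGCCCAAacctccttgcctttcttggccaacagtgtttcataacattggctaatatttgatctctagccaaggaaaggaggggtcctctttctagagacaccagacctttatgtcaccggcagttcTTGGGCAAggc
Ltf: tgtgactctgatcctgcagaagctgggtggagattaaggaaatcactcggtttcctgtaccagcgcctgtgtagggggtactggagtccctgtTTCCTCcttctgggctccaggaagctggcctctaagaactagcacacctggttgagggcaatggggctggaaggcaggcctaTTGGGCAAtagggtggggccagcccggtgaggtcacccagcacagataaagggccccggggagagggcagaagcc
Elane: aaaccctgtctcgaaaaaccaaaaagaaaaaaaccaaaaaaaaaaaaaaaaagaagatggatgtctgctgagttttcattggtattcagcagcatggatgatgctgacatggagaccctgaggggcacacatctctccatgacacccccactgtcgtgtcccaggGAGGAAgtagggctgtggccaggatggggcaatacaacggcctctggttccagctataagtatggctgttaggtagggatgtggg
These windows lie on the plus strand at chr3:90668821-90669070 (S100a8), chr9:110419558-110419807 (Ngp), chr9:111019042-111019291 (Ltf) and chr10:79886062-79886311 (Elane). The S100a8 window held GAGGAA, read on the minus strand, from 170 and from 36 bases before the start, and no TTGCNNAA. The Ngp window held TTGCNNAA from 138 and from 11 bases before the start and no GAGGAA, and the Ltf window held TTGCNNAA from 75 and GAGGAA from 157 bases before it. Each of the 4 azurophil genes held GAGGAA, once in Elane, Prtn3 and Ctsg and at 2 places in Mpo, and none held TTGCNNAA. The S100a9 window held TTGCNNAA from 236 bases before the start, and the Camp and Lyz2 windows held neither. Of 27025 mouse promoters of this length, 23.1% held GAGGAA and 9.55% held TTGCNNAA, so such matches are common and are given as letters, not as binding sites. The AP-1 letters TGANTCA, a target of the Jun proteins that JNK phosphorylates, were in none of the 10 windows and in 6.87% of all promoters. The S100a8 gene spans chr3:90669071-90670034, Ngp chr9:110419808-110423012, Ltf chr9:111019292-111042766 and Elane chr10:79886312-79888216, and which exons the array's probes read is not known here. Camp, Ngp and Ltf lie in this order on chromosome 9, with 570351 and 596279 bases between neighbours. Prtn3 and Elane lie 3137 bases apart on chromosome 10.

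All values below are log2 intensities after cyclic loess normalization, in which a step of 1 is a doubling, and values of different probes are not set against each other as amounts. In the table that the authors normalized, 24.5% of values sit at a floor of 3.12, and a gene there was not measured above it. Wild-type control replicates 2 and 3 had 10.7% and 6.98% of probes at the lowest deposited value, and the other arrays 1.86% to 4.52%. The probe of Mapk8, the gene of JNK1, had values from 1.29 to 3.94 in ventilated jnk1-/- mice, −0.29 to 3.01 in jnk1-/- controls, 2.05 to 4.48 in ventilated wild-type mice and 2.60 to 3.26 in wild-type controls. It lay at the authors' floor on 9 of 14 arrays, and where in the gene it binds is not known here, so it checks the genotype little. The lung labels were checked with Ager, a gene of alveolar type 1 cells (mean 11.92, highest 12.96), and Marco, a gene of alveolar macrophages (mean 9.33, highest 10.10). Skeletal muscle and stratified squamous markers stood high in jnk1-/- controls. Of 11 muscle genes 10, and of 21 squamous genes 12, were higher there than in wild-type controls, against 3.99% of all probes called in either direction. Their summed levels, in log2, were 13.13 to 13.65 and 12.46 to 13.43 in jnk1-/- controls, against at most 9.26 and 10.71 on every other array.

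S100a8 was high after ventilation in both genotypes. It measured 12.66, 13.13, 14.43 and 13.68 in ventilated jnk1-/- lungs, against 9.83, 10.52 and 10.47 in jnk1-/- controls. It measured 12.75, 13.99, 14.18 and 13.59 in ventilated wild-type lungs, against 10.86, 11.98 and 10.75 in wild-type controls. Every ventilated lung lay above every control lung of either genotype. S100a8 rose by 3.20 in jnk1-/- mice (9.18-fold, standard error 0.47, adjusted p = 0.00172 from limma) and by 2.43 in wild-type mice (5.39-fold, standard error 0.47, adjusted p = 0.0165). The 95% intervals of the log2 differences were 2.18 to 4.22 and 1.41 to 3.45. The highest S100a8 values lie close to the brightest probe of the arrays of their groups, at 14.73 to 15.16 in ventilated jnk1-/- and 14.52 to 14.64 in ventilated wild-type lungs, and whether this limits the differences was not tested. In wild-type mice the call was lost without wild-type control replicate 3 (2.21, adjusted p = 0.0741) and without ventilated wild-type replicate 3 (2.25, adjusted p = 0.0504), whereas in jnk1-/- mice it was kept without any single array. The control means of S100a8 were 10.27 ± 0.38 in jnk1-/- mice and 11.20 ± 0.68 in wild-type mice (SD, n = 3 each). Squamous epithelium can also make S100a8, and the part of the squamous markers in the jnk1-/- difference was not tested.

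**Figure D1:**
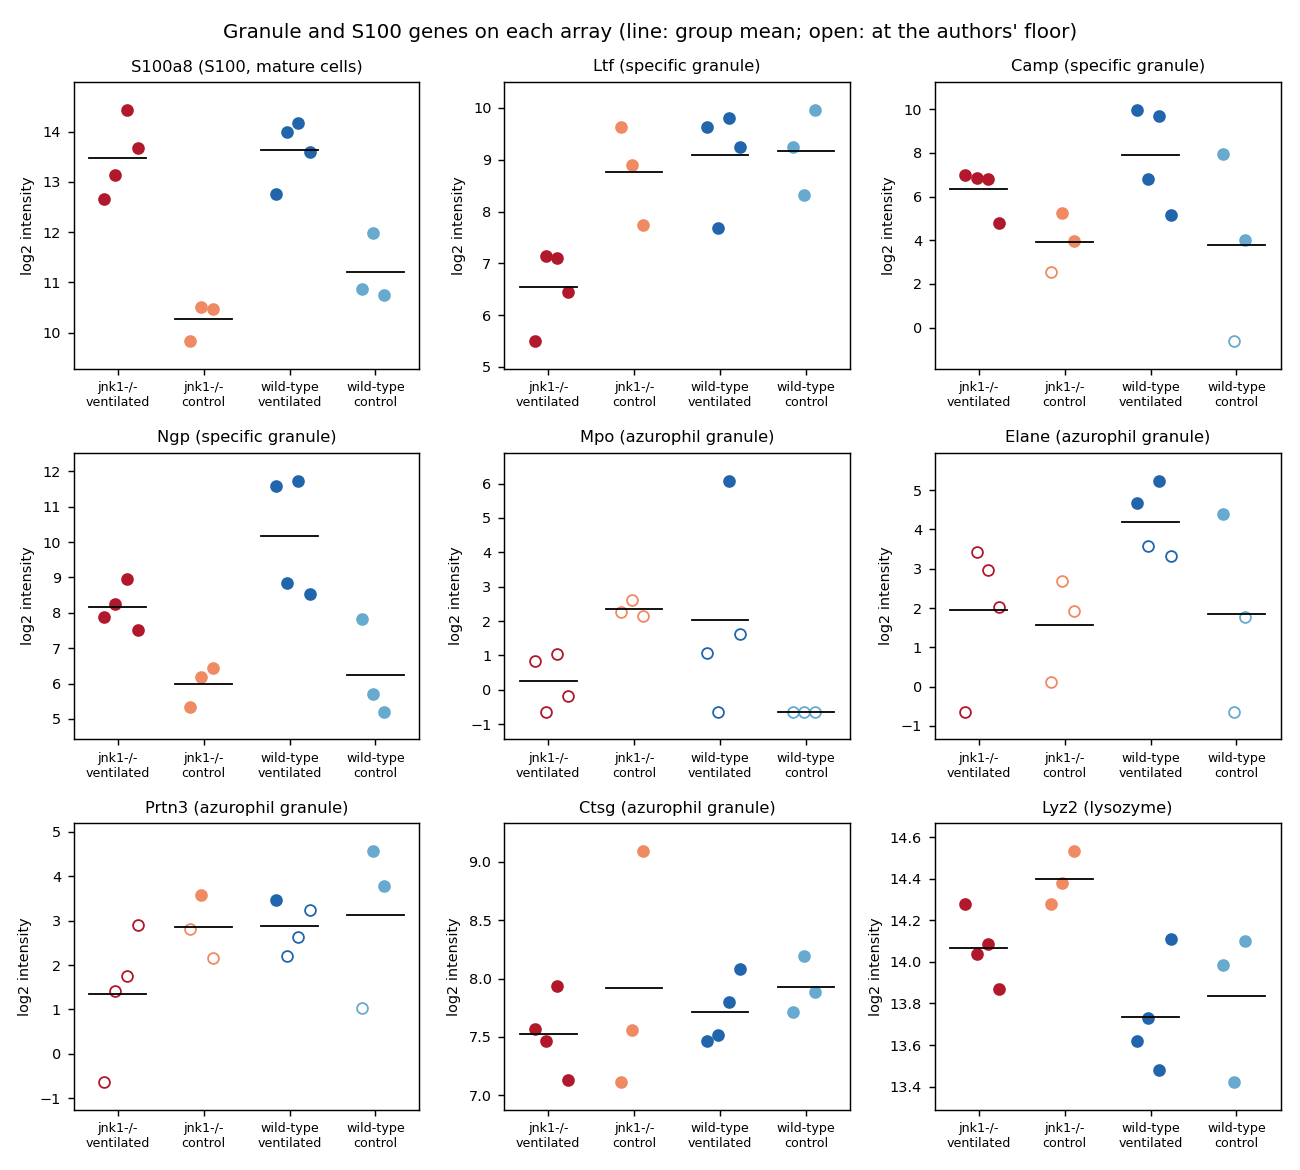
Log2 intensity of the 9 measured genes (vertical axes, each with its own range) on every array of the 4 groups (horizontal axes), with a line at each group's mean; open points lie at the authors' floor. S100a8 is above 12.6 on every ventilated array and below 12 on every control, Ltf is lowest in ventilated jnk1-/- lungs (5.50 to 7.14), and Mpo is open on 13 of 14 arrays.

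Of the specific granule genes, Ngp and Camp had their highest values in ventilated wild-type lungs, whereas Ltf had its lowest in ventilated jnk1-/- lungs. Ngp, which encodes a cathelicidin-related protein of neutrophil granules, measured 7.89, 8.26, 8.96 and 7.51 in ventilated jnk1-/- lungs, against 5.34, 6.20 and 6.43 in jnk1-/- controls. It measured 11.60, 8.86, 11.74 and 8.54 in ventilated wild-type lungs, against 7.82, 5.71 and 5.21 in wild-type controls. The ventilated and control arrays did not overlap in either genotype, and the ventilated wild-type values fell into a pair near 11.7 and a pair under 9. Ngp rose by 3.94 in wild-type mice (15.3-fold, standard error 0.85, 95% interval 2.08 to 5.80, adjusted p = 0.0282). In jnk1-/- mice the Ngp difference was 2.17 (standard error 0.85, 95% interval 0.31 to 4.02) and missed the threshold (adjusted p = 0.124), but was called in a fit of the jnk1-/- arrays alone (adjusted p = 0.0424). The wild-type call was lost without wild-type control replicate 2 (3.67, adjusted p = 0.0994) or 3 (3.42, adjusted p = 0.113) and without ventilated wild-type replicate 1 (3.47, adjusted p = 0.0729) or 3 (3.42, adjusted p = 0.0719).

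Ltf encodes lactoferrin, an iron-binding protein that glandular epithelium of the airways also secretes. Ltf measured 5.50, 7.14, 7.09 and 6.45 in ventilated jnk1-/- lungs, against 9.62, 8.90 and 7.74 in jnk1-/- controls. In wild-type mice it measured 9.63, 7.68, 9.81 and 9.24 after ventilation, against 9.25, 8.32 and 9.96 in controls. All 4 ventilated jnk1-/- lungs thus lay under all 10 other lungs, while ventilated and control wild-type lungs overlapped. Ltf fell by 2.21 in jnk1-/- mice (to 0.216 of the control level, standard error 0.63, adjusted p = 0.0402), with a 95% interval from −3.58 to −0.84. The wild-type difference was −0.09 (95% interval −1.46 to 1.28, adjusted p = 0.958). The fall of Ltf is close to the threshold. The call was lost in a fit of the jnk1-/- arrays alone (adjusted p = 0.0798). It was also lost without jnk1-/- control replicate 1 (−1.78, adjusted p = 0.151) or 2 (−2.14, adjusted p = 0.110), without ventilated jnk1-/- replicate 1 (−1.86, adjusted p = 0.0932), 2 (−2.41, adjusted p = 0.0545) or 4 (−2.18, adjusted p = 0.0853), and, at a difference of −2.21, without wild-type control replicate 1 (adjusted p = 0.0511) or ventilated wild-type replicate 1 (adjusted p = 0.0502) or 4 (adjusted p = 0.0561). The control means of Ltf were 8.75 ± 0.95 in jnk1-/- mice and 9.18 ± 0.82 in wild-type mice (SD, n = 3 each). The jnk1-/- controls are also the lungs with high squamous and muscle markers, whose part in the Ltf difference was not tested.

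Camp, the gene of the mouse cathelicidin CRAMP, an antimicrobial peptide, varied widely within groups. It measured 6.98, 6.84, 6.80 and 4.78 in ventilated jnk1-/- lungs, against 2.54, 5.25 and 3.97 in jnk1-/- controls. It measured 9.97, 6.81, 9.70 and 5.18 in ventilated wild-type lungs, against 7.94, −0.62 and 4.02 in wild-type controls. The groups overlapped in both genotypes. The Camp difference was 2.43 in jnk1-/- mice (standard error 1.72, adjusted p = 0.414) and 4.13 in wild-type mice (standard error 1.72, adjusted p = 0.202). Leaving out 1 array moved the wild-type Camp difference to between 1.93, without wild-type control replicate 2, and 6.21, without wild-type control replicate 1, where it was called (adjusted p = 0.0451). The lowest wild-type control value and 1 jnk1-/- control value lie at the authors' floor.

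The early azurophil genes gave no call in either genotype, and 3 of the 4 were near or at background. Mpo, which encodes the peroxidase that makes hypochlorous acid, lay at the authors' floor on 13 of 14 arrays, and the exception was ventilated wild-type replicate 3 at 6.09. Elane, the gene of neutrophil elastase, was above that floor on 3 arrays only, ventilated wild-type replicates 1 and 3 (4.66 and 5.24) and wild-type control replicate 1 (4.38). Elane ranged from −0.63 to 3.42 in ventilated jnk1-/- lungs, 0.12 to 2.70 in jnk1-/- controls, 3.32 to 5.24 in ventilated wild-type lungs and −0.63 to 4.38 in wild-type controls. Prtn3, the gene of proteinase 3, was at that floor on 10 arrays and reached at most 4.56, in wild-type control replicate 2. For Mpo, Elane and Prtn3 the adjusted p of the ventilation difference was 0.283, 0.894 and 0.315 in jnk1-/- mice and 0.219, 0.295 and 0.910 in wild-type mice, and neither a fold change nor a direction is read from them, because values at the floor have no order. Their fitted differences appear in the plot of ventilation differences and among the processing alternatives only to account for every gene. Ctsg, the gene of cathepsin G, was above the floor on every array. It ranged from 7.13 to 7.94 in ventilated jnk1-/- lungs, against 7.11 to 9.09 in jnk1-/- controls, and from 7.47 to 8.09 in ventilated wild-type lungs, against 7.71 to 8.20 in wild-type controls. The ventilation difference of Ctsg was −0.40 in jnk1-/- mice (95% interval −1.25 to 0.46, adjusted p = 0.589) and −0.21 in wild-type mice (95% interval −1.07 to 0.64, adjusted p = 0.819). The upper bounds for Ctsg lie under the S100a8 difference of either genotype.

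Lyz2 encodes lysozyme M, which digests bacterial cell walls and is made by macrophages and alveolar type 2 cells as well as neutrophils. It was among the brightest probes on every array. Lyz2 ranged from 13.87 to 14.28 in ventilated jnk1-/- lungs, against 14.28 to 14.53 in jnk1-/- controls, and from 13.48 to 14.11 in ventilated wild-type lungs, against 13.42 to 14.10 in wild-type controls. The differences were −0.33 in jnk1-/- mice (95% interval −0.78 to 0.13, adjusted p = 0.355) and −0.10 in wild-type mice (95% interval −0.55 to 0.36, adjusted p = 0.842). Lyz2 also lies close to the brightest probe of the arrays (14.34 to 15.16 by group), and whether this limits the Lyz2 differences was not tested.

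**Figure D2:**
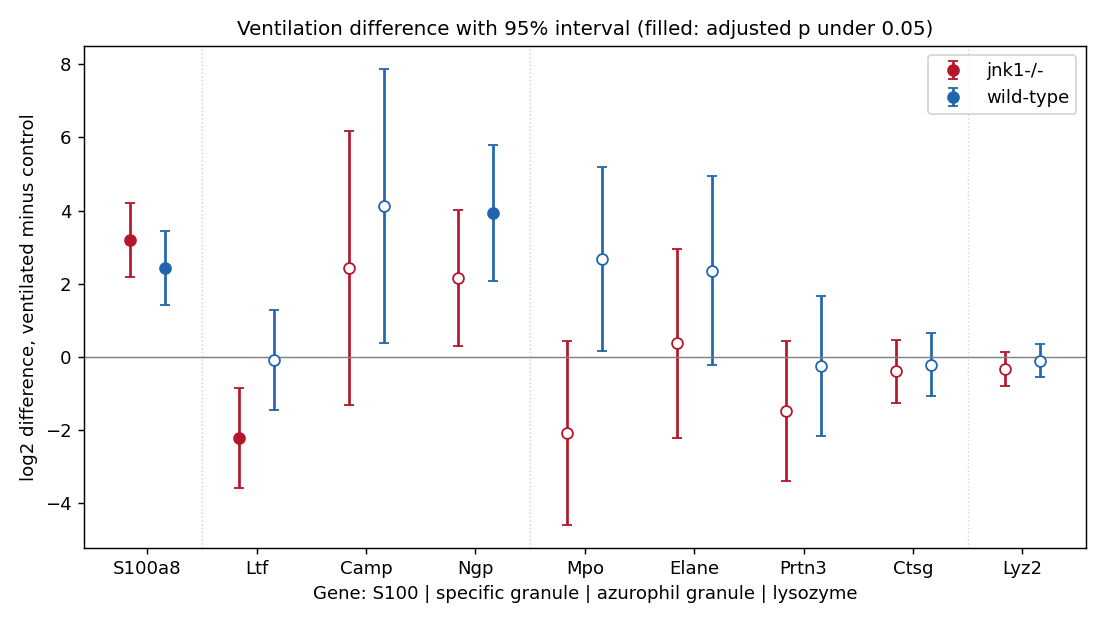
Difference between ventilated and control lungs in log2 (vertical axis) for each gene (horizontal axis, by granule class), in jnk1-/- mice in red and wild-type mice in blue, with the 95% interval of the limma fit as bars; filled points have an adjusted p under 0.05. S100a8 is filled in both genotypes, Ngp in wild-type mice and Ltf, below 0, in jnk1-/- mice.

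Over the 9 genes, ventilation in jnk1-/- mice gave 1 higher call (S100a8) and 1 lower call (Ltf). Of all probes, 12.1% were called in that comparison, 7.07% higher and 5.06% lower. Ventilation in wild-type mice gave 2 higher calls (S100a8 and Ngp) and none lower, against 3.58% of all probes, 2.32% higher and 1.26% lower. At an unadjusted p under 0.05 there were 3 genes in jnk1-/- mice, against 27% of all probes, and 4 in wild-type mice, against 20.2%. The median difference of the 9 genes was −0.33 in jnk1-/- mice and 2.36 in wild-type mice, against −0.04 and 0.11 over all probes, but the wild-type median is the difference of Elane, which rests on floor values. Over the 6 genes above the authors' floor on most arrays (without Mpo, Elane and Prtn3) the medians were 0.92 in jnk1-/- mice and 1.17 in wild-type mice. By class, the ventilation differences were 3.20 and 2.43 (jnk1-/- and wild-type) for S100a8, between −2.21 and 2.43 in jnk1-/- mice and between −0.09 and 4.13 in wild-type mice for the 3 specific granule genes, and −0.40 and −0.21 for Ctsg, the only azurophil gene measured above the floor on every array. By the methods' t-test with the study's less stringent rule (unadjusted p, no overlap and a fold change over 1.5) 4 genes passed in jnk1-/- mice (S100a8, Ltf, Ngp and Mpo), against 14.5% of all probes, and 2 in wild-type mice (S100a8 and Ngp), against 10.8%, and none passed after Benjamini-Hochberg adjustment. The Mpo values behind that count lie at the authors' floor.

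Between the genotypes, limma called none of the 9 genes. In controls, the count was 0, against 3.99% of all probes called, with 2 genes at an unadjusted p under 0.05, against 20.9% of all probes. The arrays did not overlap for 3 genes, against 27.4% of all probes, so this count does not set the genes apart. S100a8 was lower in all jnk1-/- controls than in all wild-type controls (−0.92, standard error 0.50, 95% interval −2.01 to 0.16, adjusted p = 0.313), Lyz2 was higher (0.56, standard error 0.22, adjusted p = 0.176), and Mpo lay at the authors' floor on all 6 control arrays. The methods' t-test passed 1 gene (Mpo) by the less stringent rule, against 8.94% of all probes, and none after adjustment. After ventilation, limma called 0 genes, against 0.612% of all probes, with 2 at an unadjusted p under 0.05, against 10.7% of all probes. These 2 were Ltf and Ngp, both lower in jnk1-/- lungs. Ltf differed by −2.54 with no overlap (standard error 0.58, 95% interval −3.81 to −1.28, adjusted p = 0.0882) and was the 1 gene to pass the methods' less stringent rule, against 3.78% of all probes, but not after adjustment. Without ventilated wild-type replicate 2 the Ltf difference was called (−3.01, adjusted p = 0.0420). Ngp differed by −2.03 (standard error 0.79, 95% interval −3.75 to −0.31, adjusted p = 0.366), and its arrays overlapped. S100a8 had similar values in both ventilated groups (13.47 ± 0.76 in jnk1-/- and 13.63 ± 0.63 in wild-type lungs, SD, n = 4 each), and its difference of −0.16 had a 95% interval from −1.10 to 0.79 (adjusted p = 0.945).

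Whether ventilation acted differently in the genotypes was tested as the jnk1-/- difference minus the wild-type difference. Limma called 0 of the 9 genes, against 0.398% of all probes, with 2 at an unadjusted p under 0.05, against 13.2% of all probes, and the methods' t-test has no form for this contrast. The value was 0.77 for S100a8 (standard error 0.66, 95% interval −0.67 to 2.21, adjusted p = 0.639), −1.77 for Ngp (standard error 1.21, 95% interval −4.40 to 0.86, adjusted p = 0.551) and −2.12 for Ltf (standard error 0.89, 95% interval −4.06 to −0.19, adjusted p = 0.330). Thus the Ngp call in wild-type mice and the Ltf call in jnk1-/- mice are not shown to be particular to 1 genotype.

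Within the groups the genes did not vary alike. In ventilated wild-type lungs, replicates 1 and 3 had the 2 highest values of Ngp, Camp and Elane, and replicates 2 and 4 the 2 lowest. S100a8 did not follow, since its lowest value was in replicate 1 (12.75) and its next highest to replicate 3 in replicate 2 (13.99). Cd177, a neutrophil surface protein that is also stored in specific granules, had 8.54 and 8.41 in replicates 1 and 3 and 6.53 and 6.61 in replicates 2 and 4, the same split as Ngp. Ltf had this order too (9.63 and 9.81 against 7.68 and 9.24). So did genes of the mature neutrophil list below, such as Il1r2 (11.21 and 11.02 against 8.89 and 10.22) and Trem1 (6.82 and 7.33 against 5.61 and 6.22). Others of that list, such as Cxcr2 and Csf3r, did not. The split thus does not set granule genes apart. Among wild-type controls, replicate 1 had the highest Ngp, Camp and Elane values (7.82, 7.94 and 4.38), while S100a8 was highest in replicate 2 (11.98). In ventilated jnk1-/- lungs, S100a8 and Ngp were both highest in replicate 3 (14.43 and 8.96), whereas Camp was highest in replicate 1 (6.98). These are orders among 3 or 4 lungs of a group, noticed in the values and given without a test.

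**Figure D3:**
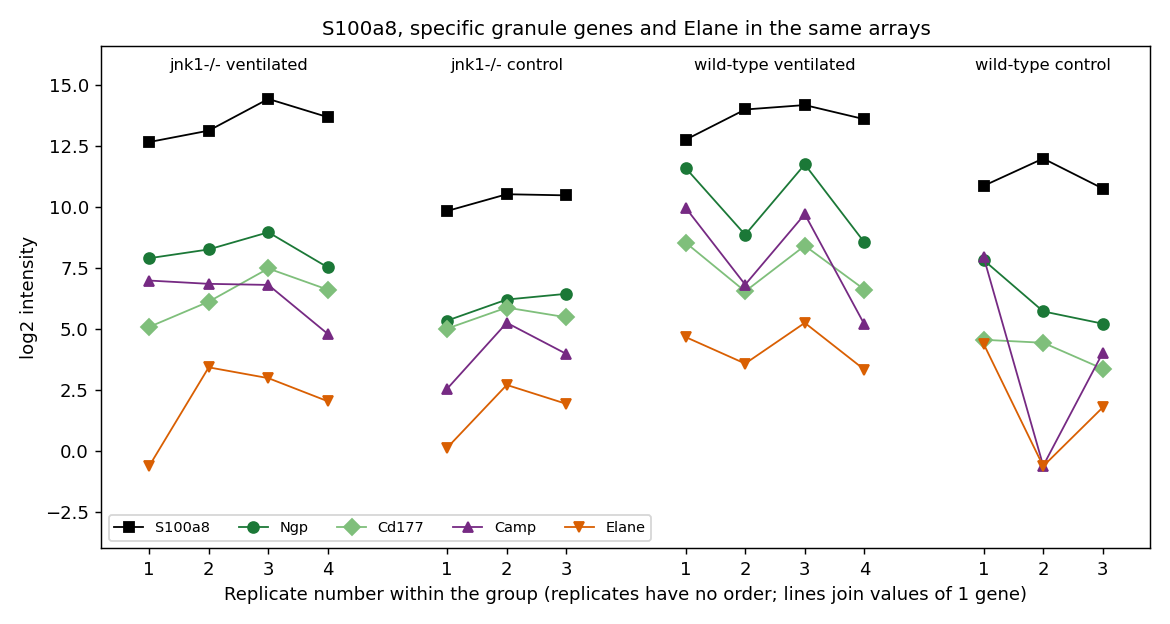
Log2 intensity (vertical axis) of S100a8, Ngp, Cd177, Camp and Elane on each array, by replicate number within the 4 groups (horizontal axis); replicates have no order and lines only join values of 1 gene. In ventilated wild-type lungs Ngp, Camp, Cd177 and Elane are higher on arrays 1 and 3 than on arrays 2 and 4, and S100a8 is not.

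Other genes of the granule and neutrophil programs were counted by list, each gene by its brightest probe. Beside the list counts here and below, limma called 7.07% of all probes higher and 5.06% lower after ventilation in jnk1-/- mice. In wild-type mice it called 2.32% higher and 1.26% lower, so the counts of the genotypes are not set against each other. Of 17 measured genes of the mature neutrophil surface and its signals, 6 were higher and none lower after ventilation in jnk1-/- mice, and 8 higher and none lower in wild-type mice. The list medians were 0.84 and 1.36, against −0.04 and 0.11 over all probes. This list shares Csf3 with that of genes that release or recruit granulocytes, and limma called Csf3 in neither genotype. Il1r2, which encodes the decoy receptor of interleukin 1, was higher by 5.24 in jnk1-/- mice (adjusted p = 0.000424) and by 6.31 in wild-type mice (adjusted p = 0.000322). Trem1, an activating receptor, rose by 2.85 and 4.98 (adjusted p = 0.00368 and 0.000356), Clec4d, a C-type lectin, by 3.55 and 3.33 (adjusted p = 0.000109 and 0.000356), both in the same order of genotypes. Trem1 lay at the authors' floor on every control array and above it on every ventilated array. The sizes of the Trem1 differences, and the gap between the genotypes, are therefore not read as fold changes. Itgam, the integrin chain CD11b, rose by 1.54 in wild-type mice (adjusted p = 0.0121) and differed by 0.77 in jnk1-/- mice (adjusted p = 0.0961). Cxcr2, a chemokine receptor, rose by 2.66 in jnk1-/- mice (adjusted p = 0.0317) and differed by 2.28 in wild-type mice (adjusted p = 0.0985). Csf3r, a receptor, differed by 1.20 in jnk1-/- mice (adjusted p = 0.0501) and by 0.35 in wild-type mice (adjusted p = 0.648). These defining neutrophil markers thus did not share 1 order of genotypes.

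Of 10 further genes of the specific and gelatinase granules, 2 were higher in jnk1-/- mice and 5 in wild-type mice after ventilation, and none was lower (list medians 0.13 and 1.33). The gene of these 5 that is not named below had an adjusted p of 0.0495 from limma. It lay at the authors' floor in wild-type control replicates 2 and 3. Mmp8, neutrophil collagenase, was far apart between ventilated and control lungs. It ranged from 11.46 to 12.80 in ventilated jnk1-/- lungs, against 6.56 to 6.81 in jnk1-/- controls, and from 11.83 to 12.62 in ventilated wild-type lungs, against 6.25 to 7.21 in wild-type controls. Mmp8 rose by 5.47 in jnk1-/- mice (adjusted p = 7.99e-06) and by 5.30 in wild-type mice (adjusted p = 3.46e-05). Ceacam1, an adhesion molecule, rose by 1.91 and 1.73 (adjusted p = 0.00711 in jnk1-/- and 0.0264 in wild-type mice). Cd177 rose by 3.41 in wild-type mice (adjusted p = 0.0141) and differed by 0.87 in jnk1-/- mice (adjusted p = 0.432), and Mcemp1, a membrane protein of mast cells and neutrophils, rose by 1.73 in wild-type mice (adjusted p = 0.0435) and differed by 0.07 in jnk1-/- mice (adjusted p = 0.944).

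Of 7 further genes listed with the azurophil granules, 1 was higher and 1 lower in jnk1-/- mice and 1 higher in wild-type mice. Some of these 7 also stand in the lists of protease inhibitors or type 2 cells, so the count does not speak for early granule genes alone. The higher gene was Srgn in both, which encodes the proteoglycan serglycin that packs granule proteins and is made by many blood cells (1.35, adjusted p = 0.00254, in jnk1-/- and 0.99, adjusted p = 0.0259, in wild-type mice). The lower gene was Serpinb1a, an inhibitor of elastase that is also in the list of protease inhibitors (−1.13, adjusted p = 0.0152). Of 11 genes listed as precursor genes of the bone marrow, none passed in wild-type mice by limma and 1, Cd34, passed in jnk1-/- mice (0.75, adjusted p = 0.0392). Genes of this list are not confined to immature cells, Cd34 being also a gene of the endothelium, so the count does not speak for immature cells alone. Of 12 other S100 genes, 0 were higher in either genotype and 1, S100a1, was lower in jnk1-/- mice (−0.85, adjusted p = 0.0120). Of 8 receptors and partners of calprotectin, Cd14, the co-receptor of TLR4, rose by 1.05 in jnk1-/- mice (adjusted p = 0.0340) and by 1.77 in wild-type mice (adjusted p = 0.00705), and Bsg, the immunoglobulin-type receptor basigin, fell by 5.06 in jnk1-/- mice (adjusted p = 0.00347). In the authors' values the Bsg difference was −1.64 and was not called (adjusted p = 0.127). Of 10 genes that release or recruit granulocytes, 2 rose in each genotype. These were Il6 and Il1b in jnk1-/- mice (2.92 and 1.91, adjusted p = 0.0152 and 0.0161) and Cxcl2 and Il6 in wild-type mice (5.06 and 3.28, adjusted p = 0.00327 and 0.0210), Cxcl2 being a chemokine that neutrophils follow. Cxcl2 differed by 2.11 in jnk1-/- mice (adjusted p = 0.0691 from limma) and Il1b by 1.59 in wild-type mice (adjusted p = 0.0672).

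**Figure D4:**
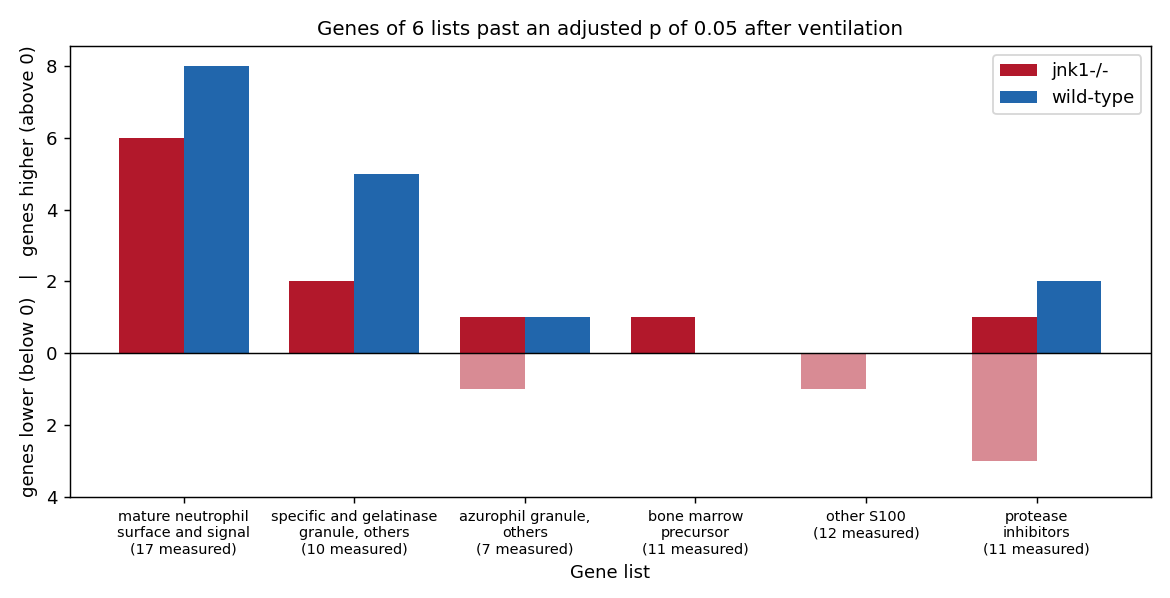
Number of genes higher (bars above 0) or lower (pale bars below 0) after ventilation at an adjusted p under 0.05 (vertical axis) in 6 gene lists (horizontal axis, with the number of genes measured), in jnk1-/- mice in red and wild-type mice in blue. The mature neutrophil list has 6 and 8 genes higher, the specific and gelatinase list 2 and 5, and the list of other azurophil genes 1 and 1. Of all probes, 7.07% were called higher in jnk1-/- mice and 2.32% in wild-type mice.

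Inhibitors of the granule proteases differed in direction. After ventilation, 1 of 11 was higher and 3 lower in jnk1-/- mice, and 2 were higher in wild-type mice. Serpina3n, an inhibitor of serine proteases and an acute phase gene, rose by 2.30 and 2.97 (adjusted p = 0.000525 in jnk1-/- and 0.0003 in wild-type mice), and Stfa3, a stefin that blocks cysteine proteases, rose by 2.14 in wild-type mice (adjusted p = 0.0368). Slpi, an elastase inhibitor of mucosal secretions, fell by 1.04 in jnk1-/- mice (adjusted p = 0.00623), as did Serpina1e, an alpha-1 antitrypsin gene whose family members are nearly identical (−1.68, adjusted p = 0.0356), beside Serpinb1a. The difference of the ventilation effect of Slpi passed the test (−1.69, adjusted p = 0.0239). In controls, Slpi and Serpina1b, Serpina1d and Serpina1e were higher in jnk1-/- than in wild-type lungs. The jnk1-/- controls are the lungs in which squamous and muscle markers were high, and their part in these differences was not tested.

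Of 32 ventilation calls among the other genes named, 18 were kept without any single array, among them those of Mmp8, Il1r2, Trem1, Clec4d and Serpina3n in both genotypes. The call of Cxcr2 in jnk1-/- mice is not among the 32 and was not put to the alternatives. Itgam and Cd177 in wild-type mice lost theirs without wild-type control replicate 3 (1.31 and 3.03, adjusted p = 0.0568 and 0.0620), and S100a1 in jnk1-/- mice without jnk1-/- control replicate 2 (−0.76, adjusted p = 0.0527). Serpinb1a lost its call without jnk1-/- control replicate 1 or 2 (−1.12 and −1.02, adjusted p = 0.0522 and 0.0617). The calls of Il6 in either genotype, of Ceacam1, Mcemp1, Srgn and Stfa3 in wild-type mice and of Il1b, Cd34, Cd14 and Serpina1e in jnk1-/- mice were also lost without at least 1 array, and all kept their direction. By the methods' t-test after adjustment 31 of the 32 calls were lost, that of Mmp8 in jnk1-/- mice being the exception, and 11 were lost with the replicate block, those of Itgam and Cd177 among them. Apart from that test, 13 calls were kept under every alternative.

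The genes whose levels were most alike to those of S100a8 and Ngp were sought among 7876 genes above the median intensity, by the SD over 14 arrays of the difference in log2 value. For S100a8 they were Sfn, Cldn4, Tinagl1, Lox and Nupr1, with an SD of 0.60 to 0.67. Cldn4 encodes a tight junction protein, Lox an enzyme that crosslinks collagen and Sfn an epithelial 14-3-3 protein. None of these 5 is among the granule or neutrophil lists. The measure picks genes with ventilation differences of like size, here 2.33 to 3.03 in jnk1-/- and 2.01 to 3.27 in wild-type mice. Neutrophil genes with larger differences, such as Mmp8, are far from S100a8 by this measure, so the absence of such genes says little. Clec4d, with differences of 3.55 in jnk1-/- and 3.33 in wild-type mice, is not among the 5 either, and the reason was not tested. For Ngp the nearest was Cd177 with an SD of 1.03, then Map3k6, Csta2, Gsta1 and Vmn1r193, with an SD up to 1.24.

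Markers of other cells, among them cells that could share these genes, are given for comparison. Of 11 alveolar macrophage genes, 2 (Ctsk and Fabp5) were lower after ventilation in jnk1-/- mice and 0 changed in wild-type mice, and of 8 monocyte genes, 2 were higher and 1 lower in jnk1-/- and 3 higher in wild-type mice. The monocyte list holds Lyz2 itself, which is not among these calls. The summed log2 level of the macrophage list was 13.93 to 14.33 in ventilated jnk1-/- lungs, 14.21 to 15.40 in jnk1-/- controls, 13.47 to 14.07 in ventilated wild-type lungs and 13.70 to 14.03 in wild-type controls. Of 9 mast cell and eosinophil genes, 3 were lower after ventilation in jnk1-/- mice and 1 in wild-type mice, and none was higher. Of 8 alveolar type 2 cell genes, 1 was lower in jnk1-/- mice and 0 changed in wild-type mice. The part of these cells in the Lyz2 and Ctsg values was not tested. Of 6 red cell genes none was called in any comparison by limma.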

How the data were processed

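Lung RNA was extracted with Trizol, labelled with Cy5 and hybridized by the authors to CodeLink arrays. The authors deposited, for each array, log2 intensities not yet brought to a common scale, none under −6.86, and a second set of log2 values after cyclic loess, none under 3.12. Here the deposited log2 intensities went through cyclic loess between every pair of arrays (span 0.7, 3 iterations, R 4.3.3), leaving out those at the lowest value, and anything under the 1st percentile was raised to it, −0.63. The normalized values correlated with the authors' table at 0.989 or more above its floor.

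Groups were taken from the sample titles. The means of the 4 groups were fitted on all 19621 probes in limma 3.58.1 (lmFit and eBayes), with 5 contrasts and a threshold of 0.05 after Benjamini-Hochberg adjustment across every probe. The number of arrays limits the precision. Each mouse gave 1 array; wild-type control replicates 2 and 3 and jnk1-/- control replicates 1 and 2 lay closer to each other than other pairs of their groups (SD of the difference 0.31 in both over probes above the median intensity, against 0.50 to 0.69), and whether these are fully independent was not tested.

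Probes were named through the platform's probe table and RefSeq genes of GRCm38.p6. The members and lists were chosen with earlier results of these data known. All members are named, with up to 4 genes of a list by adjusted p in wild-type ventilation among those called, the 5 genes most alike to S100a8 and to Ngp, and Mapk8; Cd34, S100a1, Bsg and genes called only in jnk1-/- mice or between genotypes were named after their values were seen. Csf3r and Cxcr2 are given because they were set, with Itgam, as defining markers of neutrophils. The promoter motifs were chosen after the files were opened. The fit was tested on simulated data. Alternatives covered other normalizations, the authors' values, the methods' t-test, fewer arrays in the fit, dim probes, no floor, a replicate block, array weights and each replicate left out. Python 3.11.15 and matplotlib 3.10.9 drew the figures.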

Additional observations from a re-analysis of the deposited data

Results flagged for a closer look

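In ventilated jnk1-/- lungs the Camp value of replicate 4, 4.78, lay far under the other 3 lungs (6.80 to 6.98), with a gap to its neighbour of 0.918 of the group's range. By the same measure Ceacam1 was low in ventilated jnk1-/- replicate 3 (7.56, gap 0.911 of the range), Slpi was high in 1 ventilated wild-type lung (10.77, gap 0.928) and Serpina1e was low in 1 ventilated wild-type lung (2.32, gap 0.856). All 4 gaps are above Dixon's critical value for groups of 4. In all, 64 groups of 4 lungs were tested, and chance alone gives about 1 such group in 20.

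The ventilation effect on Slpi differed between the genotypes by −1.69 (adjusted p = 0.0239 from limma). Slpi fell by 1.04 in jnk1-/- mice, and differed by 0.64 in wild-type mice (adjusted p = 0.0904). In controls Slpi was higher by 1.78 in jnk1-/- than in wild-type lungs.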

How the results depend on the processing

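Under the 24 alternatives, the 4 calls among the 9 genes kept their direction, and S100a8 in jnk1-/- mice lost its call only in the methods' t-test (adjusted p = 0.0745). The count for ventilation in wild-type mice was 2 and became 0 with only the arrays of the groups compared, 0 with the methods' t-test and 0 without both wild-type control replicates 2 and 3 (an alternative added after seeing the data); leaving out each replicate gave 0 to 3. S100a8 and Ngp then had adjusted p = 0.0556 and 0.114 with only the arrays compared, 0.145 and 0.206 in the methods' t-test, and 0.110 and 0.497 without both controls. The count for ventilation in jnk1-/- mice was 2, was also 2 with only the arrays compared, where Ngp (adjusted p = 0.0424) took the place of Ltf (adjusted p = 0.0798), and became 0 with the methods' t-test and 1 without those 2 controls; leaving out each replicate gave 1 to 3. Between controls the count became 1 (Mpo, at the authors' floor) with only the arrays compared and 0 to 1 with each replicate left out, and after ventilation 1 (Ltf, adjusted p = 0.0382) with dim probes left out and 0 to 1 with each replicate left out. The total of probes called ranged from 2 to 2259 around 703 (ventilation in wild-type mice) and from 85 to 3755 around 2379 (jnk1-/-), lowest by the t-test and highest with array weights. The cause of these changes was not tested.

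With the replicate block, the count for ventilation in jnk1-/- mice became 1, as Ltf had adjusted p = 0.0990, and no other call of the 9 genes changed. Replicate numbers did not pair the arrays, since the 19 same-numbered pairs had correlations from −0.354 to 0.253 and 1 was over 0.1.

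Of 45 differences of single genes, 19 changed sign under some alternative, none of them called. Those of Elane and Prtn3 rest on values at the authors' floor and have no readable direction. Without both wild-type control replicates 2 and 3, the wild-type ventilation difference became −0.0293 for Camp, −0.18 for Elane, 1.84 for Prtn3 and 0.0045 for Ctsg, that between controls −4.03 for Camp, 1.80 for Prtn3 and 0.21 for Ctsg, and the difference of the ventilation effect 2.46 for Camp and 0.55 for Elane. Between controls, quantile normalization gave −0.0207 for Camp, 0.0919 for Prtn3 and 0.0243 for Ctsg, the authors' values −1.13 and the fast loess −0.28 for Camp, no floor 1.81 for Elane and array weights 0.0700 for Ngp. Quantile normalization gave 0.10 for Prtn3 in wild-type ventilation, array weights 0.0111 for Ctsg in jnk1-/- ventilation and 0.18 in the difference of the effect, and the authors' values 0.29 there for Prtn3. Leaving out each replicate gave −0.51 to 0.38 (Ltf), −1.29 to 0.47 (Prtn3) and −0.31 to 0.0325 (Lyz2) for wild-type ventilation, −0.36 to 1.23 (Elane) and −0.80 to 0.19 (Ctsg) for jnk1-/- ventilation, −0.86 to 0.0878 (Ltf), −2.06 to 2.22 (Camp), −0.78 to 0.53 (Ngp), −1.50 to 1.01 (Elane), −1.32 to 0.44 (Prtn3) and −0.59 to 0.40 (Ctsg) between controls, −0.47 to 0.12 (S100a8) after ventilation, and −3.78 to 0.50 (Camp) and −0.59 to 0.40 (Ctsg) for the difference of the effect.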
